A study of Homo sapiens with 12 samples.

Results

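The genes described here make cholesterol and fatty acids, or control how much of both is made. They were taken from a list of 38 gene symbols, and the microarray held a row with exactly 1 symbol for 35 of them, among 18417 genes with such a row. For a gene with several rows the row that was brightest on average was used, which mattered only for *CYP51A1*. *FDFT1* and *ACSL3* had no row with a single symbol among the rows used here, and *HSD17B7* appeared only in a row that names several genes, so these 3 were not analysed here. Of the 35 genes, 19 belong to sterol synthesis and its control and 16 to fatty acid synthesis and use.

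Calu-6 is a human lung cancer cell line. The cells received scrambled siRNA (siControl) or siRNA against *LAPTM4B* (siLAPTM4B), a gene for a lysosomal membrane protein, and 1 day later were kept in DMEM/F12 medium with 10% FBS or moved to the same medium with 0% FBS. Cells were harvested at 48 h in the new medium, or 72 h from transfection, as 3 replicates of each of the 4 groups. Their RNA was hybridised to 12 Affymetrix Human Gene 1.0 ST arrays. All groups thus share the cell line and the transfection, and *LAPTM4B* was knocked down, not deleted, in a single cell line. Every value below is a log2 signal after RMA, the normalisation that the authors applied, and a difference of 1 on this scale is a doubling.

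Cells can take up sterols and fatty acids from serum lipoproteins or make them from acetyl-CoA. The sterol route runs through mevalonate and farnesyl diphosphate to squalene, lanosterol and cholesterol. Both routes are switched on by the transcription factors SREBP-1 and SREBP-2, encoded by *SREBF1* and *SREBF2*. These are membrane proteins of the endoplasmic reticulum that SCAP escorts to the Golgi for cleavage when membrane cholesterol is low, whereas INSIG1 holds the SCAP and SREBP complex back when sterols are plentiful. Cleaved SREBP binds sterol regulatory elements in promoters, usually next to sites for NF-Y, which reads CCAAT, and Sp1, which reads GGGCGG.

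Promoter sequences from RefSeq (GRCh38.p14) were at hand for 33 of the 38 genes, with no entry for *ACAT2*, *FDFT1*, *SQLE*, *FASN* and *PNPLA3*. Each window holds 250 bases before and 50 bases after a transcription start, and a gene can have several. CCAAT on either strand was in a window of 25 of the 33 genes (75.8%), against 39.7% of all 27305 genes of that table. GGGCGG on either strand was in a window of 31 genes (93.9%), against 48.3% of all genes. The classical sterol regulatory element letters TCACNCCAC were found on either strand in 2 genes, *ACSL1* and *SREBF2* (6.06%, against 1.39% of all genes). A gene counted when any of its windows matched. Over the 50 windows of these genes the shares were 58% for CCAAT, 80% for GGGCGG and 4% for TCACNCCAC. They were 34.6%, 45% and 1.13% over all 35116 windows. The windows were not matched on base composition, and a match of letters is not a binding site. The 250 bases upstream of the start are given for *HMGCS1*, *LSS*, *STARD4* and *INSIG1*, whose signals moved most among the sterol genes, and for *SREBF2*, which holds all 3 motifs. Each is written 5′ to 3′ on the strand of the gene, with matches to these motifs or to their reverse complements in capitals.
*HMGCS1*, chr5:43313413-43313662, minus strand: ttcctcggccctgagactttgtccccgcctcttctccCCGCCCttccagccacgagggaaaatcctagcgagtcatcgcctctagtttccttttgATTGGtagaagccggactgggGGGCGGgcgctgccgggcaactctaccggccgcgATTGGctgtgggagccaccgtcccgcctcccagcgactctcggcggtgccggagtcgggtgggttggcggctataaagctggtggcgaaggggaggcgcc
*LSS*, chr21:46228775-46229024, minus strand: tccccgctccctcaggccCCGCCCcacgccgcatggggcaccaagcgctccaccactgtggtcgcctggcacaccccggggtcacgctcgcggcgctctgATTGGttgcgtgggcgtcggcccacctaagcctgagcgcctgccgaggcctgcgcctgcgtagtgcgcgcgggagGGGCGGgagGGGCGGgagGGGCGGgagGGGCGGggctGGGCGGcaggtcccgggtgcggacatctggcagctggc
*STARD4*, chr5:111512536-111512785, minus strand: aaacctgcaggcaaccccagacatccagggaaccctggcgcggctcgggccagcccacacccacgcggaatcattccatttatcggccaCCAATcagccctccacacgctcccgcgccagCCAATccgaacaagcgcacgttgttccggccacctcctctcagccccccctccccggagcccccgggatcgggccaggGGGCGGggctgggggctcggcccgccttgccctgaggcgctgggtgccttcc
*INSIG1*, chr7:155297628-155297877, plus strand: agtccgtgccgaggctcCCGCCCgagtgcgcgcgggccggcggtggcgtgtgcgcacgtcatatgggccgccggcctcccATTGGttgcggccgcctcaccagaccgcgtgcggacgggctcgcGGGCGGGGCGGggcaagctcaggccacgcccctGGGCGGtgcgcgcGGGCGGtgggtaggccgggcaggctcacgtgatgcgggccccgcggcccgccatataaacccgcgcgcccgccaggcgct
*SREBF2*, chr22:41832855-41833104, plus strand: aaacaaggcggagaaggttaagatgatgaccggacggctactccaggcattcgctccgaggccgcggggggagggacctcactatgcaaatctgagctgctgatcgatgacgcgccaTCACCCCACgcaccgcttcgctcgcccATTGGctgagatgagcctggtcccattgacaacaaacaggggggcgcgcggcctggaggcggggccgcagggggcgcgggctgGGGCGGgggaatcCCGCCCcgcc
In these stretches *LSS* held 6 and *INSIG1* 5 copies of GGGCGG, where neighbouring copies may share letters, and *HMGCS1* and *STARD4* held 2 copies of CCAAT each.

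*LAPTM4B*, the targeted gene, was lower in the siLAPTM4B arrays by 1.42 without serum (SE 0.05) and by 1.75 with 10% FBS (SE 0.04), the direction that the labels give. Arrays of one group correlated at 0.9976 or above over the rows, and array medians lay between 7.71 and 7.76. Of the epithelial markers, *KRT8* was at 12.76 to 12.99 and *KRT18* at 12.14 to 12.35 on the 12 arrays, whereas *CDH1*, the gene for E-cadherin, stayed at 6.10 to 6.29. Of the leukocyte markers *PTPRC*, the gene for CD45, had the lowest mean and stayed at 5.19 to 5.31, and *CD68*, a lysosomal protein of macrophages, had the highest mean at 10.29.

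Serum withdrawal was compared first, as the value without serum minus the value with 10% FBS, so that positive numbers mean a higher signal in starved cells. Most genes of sterol and fatty acid synthesis rose when serum was removed. In siControl cells 29 of the 35 were called higher (82.9%) by limma at an adjusted p under 0.05, against 13.2% of all rows tested, and 2 were called lower, against 12.9%. In siLAPTM4B cells 29 were again called higher, against 9.74% of all rows, and 1 was called lower, against 11%. The same 29 genes were called in both, whereas 7.85% of all rows were called higher in both. The median log2 fold change over the 35 genes was 0.51 in siControl cells and 0.60 in siLAPTM4B cells, beside -0.02 and -0.01 over all rows.

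The groups were far apart on the arrays. In 29 of the 35 genes each of the 6 arrays without serum lay above each of the 6 arrays with 10% FBS, which was so for 9.19% of all rows. The SD within a group of 3 arrays had a median of 0.0408 over these genes and reached 0.134 at most. The rises among the 29 genes ran from 0.28 to 2.05 in siControl cells and from 0.19 to 1.81 in siLAPTM4B cells. In both kinds of cells 5 genes rose by more than 1, namely *ACSL1*, *INSIG1*, *FADS2*, *STARD4* and *HMGCS1*, and 0.601% and 0.462% of all rows did so. In bulk RNA, more transcript per cell and more of the cells that express a gene cannot be told apart.

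**Figure D1:**
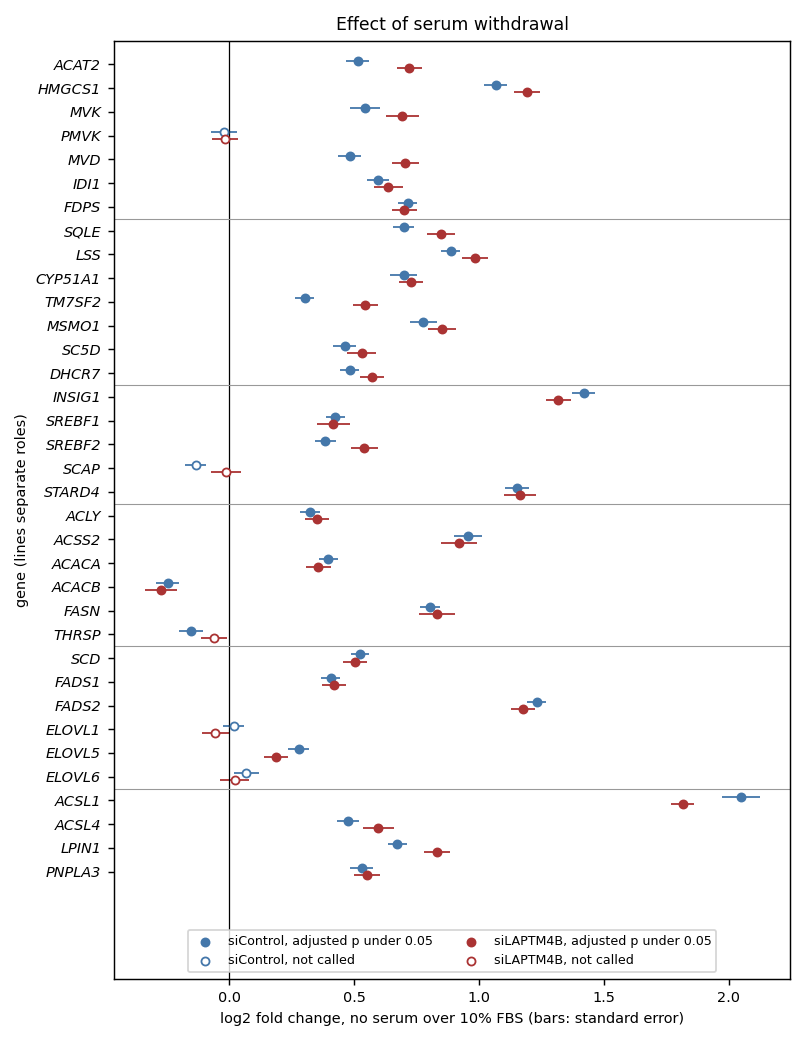
Log2 fold change (no serum over 10% FBS) of the 35 genes in siControl and siLAPTM4B cells, with bars for the standard error of the limma fit and 3 arrays per group. Filled points passed an adjusted p under 0.05. Horizontal lines separate the roles. *ACSL1* stood farthest to the right at 2.05 and 1.81, and *ACACB* to the left of 0 at -0.24 and -0.27.

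Of the 7 genes of the mevalonate steps, 6 rose in both kinds of cells and *PMVK* did not pass the test. *HMGCS1*, the enzyme that joins acetyl-CoA and acetoacetyl-CoA to HMG-CoA, was at 12.41, 12.43 and 12.43 in starved siControl cells and 11.29, 11.35 and 11.43 in siControl cells with FBS. In siLAPTM4B cells it was at 12.55, 12.64 and 12.61 without serum and 11.36, 11.43 and 11.42 with FBS. The gap between media, 1.07 in siControl cells (SE 0.05, adjusted p = 2.1e-06) and 1.19 in siLAPTM4B cells (SE 0.05, adjusted p = 4.89e-07), was many times the spread within a group.

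*ACAT2*, whose cytosolic thiolase supplies acetoacetyl-CoA to that step, was at 10.79, 10.86 and 10.93 without serum and 10.34, 10.33 and 10.36 with FBS in siControl cells. In siLAPTM4B cells it was at 10.86, 10.88 and 10.94 without serum and 10.11, 10.22 and 10.18 with FBS. The media did not overlap, with rises of 0.51 and 0.72 (both SE 0.05). *MVK*, mevalonate kinase, was at 9.77, 10.00 and 9.91 without serum and 9.38, 9.36 and 9.32 with FBS in siControl cells, and at 9.83, 10.04 and 10.04 and then 9.25, 9.31 and 9.26 in siLAPTM4B cells. Its starved arrays scattered more than those with FBS (SD 0.117 and 0.029 in siControl cells), yet all stood above them. *MVD*, which decarboxylates mevalonate diphosphate to isopentenyl diphosphate, was at 10.62, 10.67 and 10.66 without serum and 10.24, 10.14 and 10.12 with FBS in siControl cells. In siLAPTM4B cells its values were 10.72, 10.75 and 10.70 without serum and 10.08, 9.94 and 10.04 with FBS. *FDPS*, which makes farnesyl diphosphate, was at 11.34, 11.30 and 11.32 against 10.62, 10.58 and 10.60 in siControl cells and at 11.30, 11.32 and 11.31 against 10.55, 10.64 and 10.63 in siLAPTM4B cells. Its rise was nearly the same in both, 0.71 (SE 0.04) and 0.70 (SE 0.05). *IDI1*, the isopentenyl diphosphate isomerase, rose by 0.60 and 0.64. *PMVK*, which phosphorylates mevalonate phosphate between the steps of *MVK* and *MVD*, differed by -0.02 in both kinds of cells, with 95% intervals from -0.14 to 0.10 and from -0.13 to 0.10, and its media overlapped.

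All 7 measured genes between squalene and cholesterol rose in both kinds of cells, by 0.30 to 0.89 in siControl and 0.53 to 0.98 in siLAPTM4B cells. *LSS*, which folds squalene epoxide into lanosterol, moved most. It was at 11.07, 11.06 and 11.06 without serum and 10.16, 10.21 and 10.17 with FBS in siControl cells, and at 10.97, 11.06 and 11.09 against 10.08, 10.08 and 10.02 in siLAPTM4B cells. The differences were 0.89 (SE 0.04, adjusted p = 1.97e-06) and 0.98 (SE 0.05, adjusted p = 1.73e-06), and the lowest starved array stood well above the highest array with FBS. *SQLE*, the squalene epoxidase, was at 12.34, 12.26 and 12.29 against 11.58, 11.58 and 11.63 in siControl cells and at 12.36, 12.37 and 12.36 against 11.41, 11.58 and 11.55 in siLAPTM4B cells. *MSMO1*, which starts the removal of methyl groups at carbon 4 of the sterol ring, was at 11.86, 11.97 and 11.99 against 11.09, 11.18 and 11.22 in siControl cells. In siLAPTM4B cells *MSMO1* was at 11.88, 11.93 and 11.94 against 10.97, 11.10 and 11.13. The media did not overlap in either gene, with rises of 0.70 and 0.85 for *SQLE* and of 0.78 and 0.85 for *MSMO1*.

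*CYP51A1*, the lanosterol demethylase, was at 12.27, 12.11 and 12.13 without serum and 11.48, 11.43 and 11.51 with FBS in siControl cells, and at 12.12, 12.15 and 12.16 against 11.36, 11.45 and 11.43 in siLAPTM4B cells. Its rises were 0.70 and 0.73, and a second row of the gene gave 0.74 and 0.64, so both rows moved the same way. *SC5D*, the sterol desaturase, rose by 0.46 and 0.53, and *DHCR7*, which reduces 7-dehydrocholesterol to cholesterol, by 0.48 and 0.57. *TM7SF2*, a sterol reductase that acts after *CYP51A1*, had the smallest rise of this group in siControl cells at 0.30 (SE 0.04) and rose by 0.54 (SE 0.05) in siLAPTM4B cells.

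Among the regulators, *INSIG1*, itself a target of SREBP, had the largest change of any sterol gene listed. It was at 11.61, 11.49 and 11.57 without serum and 10.13, 10.11 and 10.18 with FBS in siControl cells, and at 11.24, 11.34 and 11.29 against 9.97, 10.02 and 9.93 in siLAPTM4B cells. These differences were 1.42 (SE 0.05, 2.67-fold, adjusted p = 4.72e-07) and 1.32 (SE 0.05, 2.49-fold, adjusted p = 2.96e-07). *STARD4*, a soluble carrier that moves cholesterol between membranes, was at 10.60, 10.59 and 10.56 against 9.35, 9.47 and 9.48 in siControl cells and at 10.61, 10.59 and 10.69 against 9.39, 9.59 and 9.42 in siLAPTM4B cells. Its rise was 1.15 (SE 0.05) and 1.17 (SE 0.06).

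The genes of the transcription factors rose by less than the median of the 35 genes. *SREBF2* was at 11.07, 11.08 and 11.12 without serum and 10.69, 10.76 and 10.67 with FBS in siControl cells, and at 11.11, 11.23 and 11.17 against 10.69, 10.60 and 10.59 in siLAPTM4B cells. *SREBF1* was at 11.00, 11.03 and 11.04 against 10.60, 10.62 and 10.58 in siControl cells and at 11.00, 11.13 and 11.04 against 10.75, 10.63 and 10.54 in siLAPTM4B cells. The media stayed apart in both genes, with rises of 0.39 and 0.54 for *SREBF2* and of 0.42 in both kinds of cells for *SREBF1*. *SCAP* did not pass the test. It was at 10.60, 10.63 and 10.66 without serum and 10.77, 10.80 and 10.72 with FBS in siControl cells, a difference of -0.13 (SE 0.04) that missed the threshold (adjusted p = 0.0515), although 4 of the 9 other settings called it lower. In siLAPTM4B cells it was at 10.51, 10.62 and 10.59 against 10.69, 10.53 and 10.53, and the media overlapped.

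**Figure D2:**
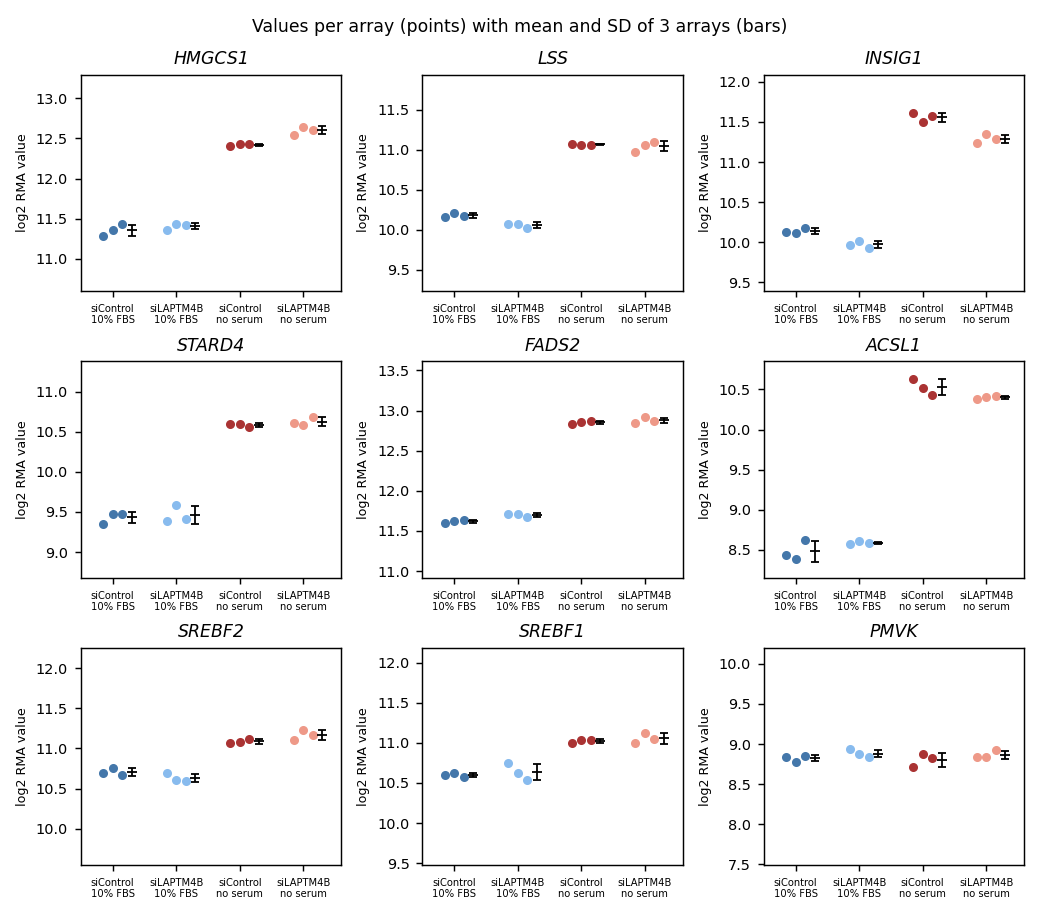
Log2 signal on each of the 12 arrays for *HMGCS1*, *LSS*, *INSIG1*, *STARD4*, *FADS2*, *ACSL1*, *SREBF2*, *SREBF1* and *PMVK*, 3 arrays per group, with bars for the group mean and SD and the same span of scale in each panel. In 8 of the panels the 6 arrays without serum stand above the 6 with 10% FBS, and in that of *PMVK* they overlap.

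In the core of fatty acid synthesis 4 of 6 genes rose in both kinds of cells. *FASN*, the fatty acid synthase, was at 12.20, 12.23 and 12.24 without serum and 11.43, 11.44 and 11.39 with FBS in siControl cells, and at 12.20, 12.32 and 12.21 against 11.56, 11.39 and 11.29 in siLAPTM4B cells. It rose by 0.80 (SE 0.04, adjusted p = 3.55e-06) and 0.83 (SE 0.07, adjusted p = 3.73e-05). *ACSS2*, which makes acetyl-CoA from acetate, was at 9.23, 9.11 and 9.16 against 8.18, 8.14 and 8.30 in siControl cells and at 9.36, 9.37 and 9.47 against 8.40, 8.63 and 8.40 in siLAPTM4B cells. It rose by 0.96 (SE 0.05) and 0.92 (SE 0.07), and *ACLY*, which makes acetyl-CoA from citrate, rose by 0.32 (SE 0.04) and 0.35 (SE 0.05).

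The acetyl-CoA carboxylases, which make malonyl-CoA, parted. *ACACA*, the cytosolic form that feeds fatty acid synthesis, rose by 0.40 (SE 0.04) and 0.36 (SE 0.05). *ACACB*, the form at the outer mitochondrial membrane that restrains fatty acid oxidation, fell by 0.24 (SE 0.05, adjusted p = 0.00555) and 0.27 (SE 0.07, adjusted p = 0.0158). Its values were 8.76, 8.74 and 8.82 against 8.97, 9.08 and 9.01 in siControl cells and 8.56, 8.75 and 8.76 against 8.99, 9.00 and 8.90 in siLAPTM4B cells, so that it was the only gene of the 35 whose 6 starved arrays all lay below the 6 with FBS. The call in siLAPTM4B cells was lost without FBS replicate 1 or FBS replicate 2, where the count of lower genes went from 1 to 0. *THRSP*, a nuclear protein that promotes lipogenesis, differed by -0.15 (SE 0.05) in siControl cells at an adjusted p of 0.0499, and by -0.06 in siLAPTM4B cells, where it was not called. With the replicate number as a block, or without any 1 of the 6 siControl arrays, *ACACB* alone was called lower in siControl cells.

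All 3 desaturases rose. *FADS2*, which starts the desaturation of polyunsaturated fatty acids, was at 12.83, 12.86 and 12.87 without serum and 11.60, 11.63 and 11.64 with FBS in siControl cells, and at 12.84, 12.91 and 12.88 against 11.71, 11.72 and 11.67 in siLAPTM4B cells. The difference was 1.23 (SE 0.04, adjusted p = 4.45e-07) and 1.18 (SE 0.05, adjusted p = 3.74e-07). *FADS1*, which acts after it, rose by 0.41 and 0.42, and *SCD*, which makes oleic acid from stearic acid, by 0.52 and 0.50. The elongases moved little. *ELOVL5*, which lengthens polyunsaturated fatty acids, rose by 0.28 (SE 0.04) and 0.19 (SE 0.05), and in siLAPTM4B cells its call was lost in 4 of the 6 fits that left out an array, those without no-serum replicate 2, no-serum replicate 3, FBS replicate 1 or FBS replicate 3. *ELOVL6*, which takes palmitic to stearic acid, differed by 0.07 and 0.02, with 95% intervals from -0.05 to 0.19 and from -0.11 to 0.15. *ELOVL1*, which makes very long chains, differed by 0.02 and -0.06, with 95% intervals from -0.08 to 0.11 and from -0.18 to 0.07.

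The 4 genes of fatty acid activation and glycerolipid use all rose. *ACSL1*, a long-chain acyl-CoA synthetase, had the largest change of the 35 genes. It was at 10.63, 10.52 and 10.43 without serum and 8.43, 8.38 and 8.63 with FBS in siControl cells, and at 10.38, 10.41 and 10.42 against 8.58, 8.61 and 8.59 in siLAPTM4B cells. These are differences of 2.05 (SE 0.08, 4.13-fold, adjusted p = 9.95e-07) and 1.81 (SE 0.05, 3.52-fold, adjusted p = 3.18e-08). *ACSL4*, which prefers arachidonic acid, rose by 0.48 and 0.60. *LPIN1*, a phosphatidate phosphatase of triglyceride synthesis, was at 10.71, 10.67 and 10.70 against 10.05, 10.00 and 10.02 in siControl cells and at 10.78, 10.77 and 10.83 against 9.95, 10.02 and 9.91 in siLAPTM4B cells. *PNPLA3*, a protein of lipid droplets, rose by 0.53 and 0.55.

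**Figure D3:**
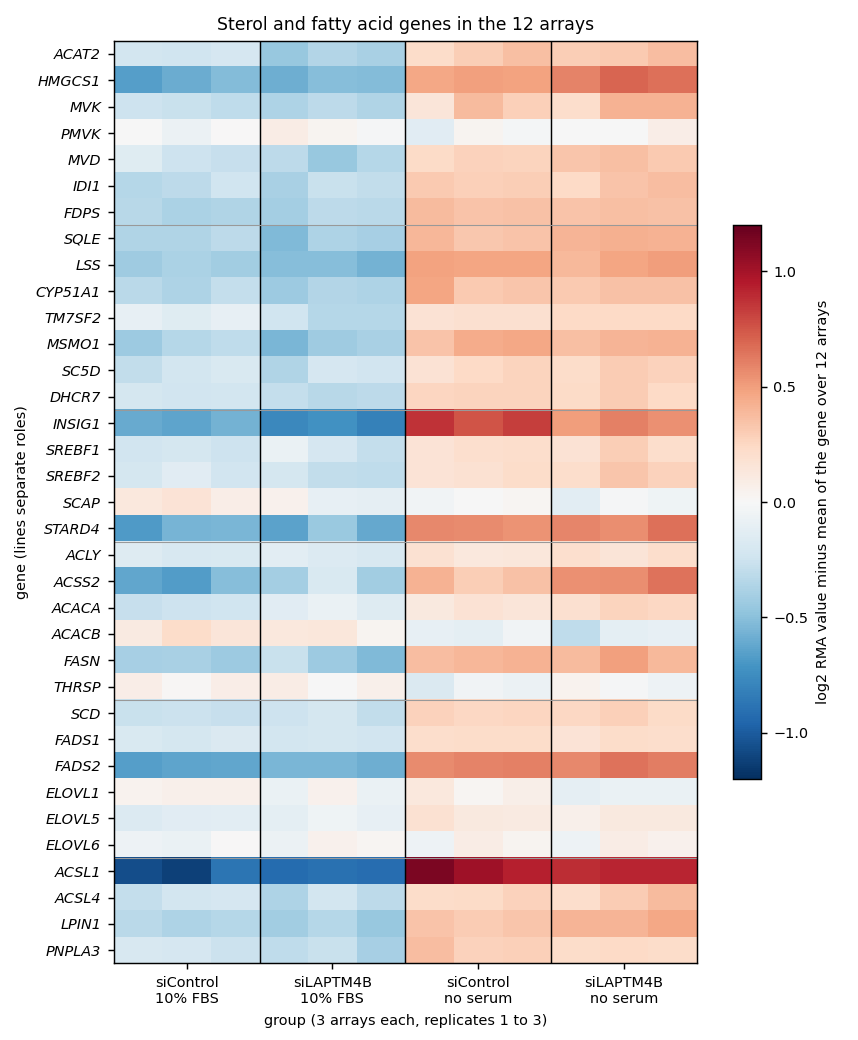
Log2 signal of each of the 35 genes (rows, in order of role) on each of the 12 arrays (columns, by group), as the difference from the mean of that gene over the 12 arrays. Starved columns lie above the mean in the 29 genes that were called higher, and *ACACB* shows the opposite order.

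Since no array is shared between the serum comparison in siControl cells and that in siLAPTM4B cells, their effects can be set side by side. Over the 35 genes the effects correlated with r = 0.976 (Spearman's rho 0.962), beside r = 0.865 over all rows, and had the same sign in 34 of the 35, as did 70.5% of all rows. Genes are not independent replicates, and this describes likeness only.

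Other genes of these pathways moved less evenly. Each count of them can be read against the share of all rows, of which 13.2% rose and 12.9% fell in siControl cells and 9.74% rose and 11% fell in siLAPTM4B cells. Of 8 other sterol enzymes and helpers measured, 4 rose in siControl cells, against 13.2% of all rows, and 2 in siLAPTM4B cells, against 9.74%, where *CYB5R3* fell by 0.18. *NSDHL* and *EBP*, which act between lanosterol and cholesterol, rose by 0.35 and 0.31 in siControl cells and by 0.42 and 0.38 in siLAPTM4B cells. Of 11 genes of the other uses of isoprenoids (prenylation, ubiquinone and dolichol), 1 rose in siControl cells, *GGPS1* by 0.36, and 0 rose in siLAPTM4B cells, where *COQ2* and *DHDDS* fell by 0.28 and 0.18. Of 14 genes of SREBP processing and turnover, 2 rose and 5 fell in siControl cells, and 0 rose and 6 fell in siLAPTM4B cells. The 2 that rose in siControl cells are 14.3% of the list, near the share of all rows, and those that fell are 35.7% and 42.9%. *ERLIN1* and *ERLIN2*, which act in sterol-regulated protein breakdown at the endoplasmic reticulum, fell by 0.19 and 0.27 in siControl cells and by 0.40 and 0.30 in siLAPTM4B cells. In siControl cells *SEC24D* and *UBXN8* fell by 0.29 and 0.22, and *PAQR3* and *RNF139* both rose by 0.29.

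Genes of lipid uptake and export also moved. Of 10 genes of cholesterol uptake and trafficking, 6 rose and 1 fell in siControl cells and 3 rose and 1 fell in siLAPTM4B cells. The rises are 60% and 30% of the list, against 13.2% and 9.74% of all rows, and the 10% that fell in each is near the share of all rows. *VLDLR*, a lipoprotein receptor, was at 9.17, 9.03 and 9.01 without serum and 6.76, 6.66 and 6.79 with FBS in siControl cells, a rise of 2.34 (SE 0.06), and rose by 2.10 (SE 0.05) in siLAPTM4B cells. *NPC1*, which lets cholesterol out of lysosomes, rose by 0.68 and 0.73, whereas *STARD5* fell by 0.50 and 0.48. Of 9 targets of the sterol receptor LXR and genes of cholesterol export, 5 rose in siControl and 6 in siLAPTM4B cells and 0 fell in either, so that 55.6% and 66.7% rose. *ABCG1* rose by 1.49 and 1.34 and *ABCA1* by 1.38 and 0.93, both exporters of cholesterol. *FABP3*, a fatty acid binding protein, was at 11.68, 11.68 and 11.75 without serum and 9.05, 9.04 and 9.09 with FBS in siControl cells, a rise of 2.64 (SE 0.04), and rose by 2.89 (SE 0.05) in siLAPTM4B cells. It stands in a list of 7 measured SREBP targets outside the synthetic steps, all of which rose in siControl cells and 6 in siLAPTM4B cells, but 6 of the 7 (*INSIG1*, *STARD4*, *LPIN1*, *PNPLA3*, *NPC1* and *TMEM97*) were already counted above, so that *FABP3* is the only gene it adds.

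The supply of citrate and NADPH rose in part, with 4 of 7 genes (57.1%) higher in both kinds of cells, against 13.2% and 9.74% of all rows, among them *ME1*, the cytosolic malic enzyme, by 0.57 and 0.51 and *IDH1* by 0.42 and 0.37. The list of fatty acid oxidation genes, which also holds *PDK4* and *ANGPTL4* from outside the pathway itself, went both ways. Of 12 measured, 4 rose and 3 fell in siControl cells, and 4 rose and 4 fell in siLAPTM4B cells. These are 33.3% and 25% in siControl cells and 33.3% each way in siLAPTM4B cells, against 13.2% and 12.9% and 9.74% and 11% of all rows. *PDK4*, which inhibits pyruvate dehydrogenase, rose by 1.56 and 1.40, *ANGPTL4*, an inhibitor of lipoprotein lipase, by 1.43 and 1.50, and *CPT1A*, which admits fatty acids to mitochondria, by 0.51 and 0.47, while *ETFDH* fell by 0.40 and 0.56 and *CPT2* by 0.40 and 0.29. In triglyceride synthesis and lipid droplets 3 of 11 rose and 3 fell in siControl cells (27.3% each way), and 2 rose and 2 fell in siLAPTM4B cells (18.2% each way), with *PLIN2*, a droplet coat protein, up by 0.86 and 0.67 and *GPAM*, the first acyltransferase, down by 0.36 and 0.52. Of 10 other elongation and desaturation genes 3 rose (30%) and 2 fell (20%) in each kind of cells, with *SCD5* higher by 0.47 and 0.40 and *HACD2* lower by 0.28 and 0.39. Of 11 other acyl-CoA synthetases 3 rose and 3 fell in siControl cells (27.3% each way) and 2 rose and 3 fell in siLAPTM4B cells (18.2% and 27.3%). *SLC27A2* rose by 0.73 and 0.65, whereas *ACSL5*, a relative of *ACSL1*, fell by 0.36 and 0.59.

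Genes of other programmes were counted in the same way, beside 13.2% higher and 12.9% lower of all rows in siControl cells and 9.74% and 11% in siLAPTM4B cells. Of 12 cell cycle genes 1 rose and 5 fell in siControl cells and 0 rose and 4 fell in siLAPTM4B cells, at most by 0.31 (*MCM5* in siControl cells). The falls are 41.7% and 33.3% of that list. Of 7 fibroblast markers 1 rose and 1 fell in both (14.3% each way), near the share of all rows, and their mean signal per array was 7.31 to 7.39 without serum and 7.54 to 7.64 with FBS in siControl cells and 7.26 to 7.37 and 7.49 to 7.57 in siLAPTM4B cells. *PDGFRA* was the marker that rose, by 0.40 and 0.47, and *LUM* the one that fell, by 1.87 and 1.85. *DCN* had the lowest mean of the list at 5.25. Of 7 leukocyte markers 2 rose and 2 fell in both (28.6% each way), with means per array of 7.60 to 7.71 over the 12 arrays. *LYZ*, the lysozyme gene, rose by 0.65 and 0.31, and *CD68* fell by 0.52 and 0.62. Of 6 epithelial markers *EPCAM* rose by 1.09 and 0.79 and *KRT7* fell by 1.63 and 1.90, and the mean per array was 9.70 to 9.74 without serum and 9.76 to 9.92 with FBS. The 5 endothelial markers gave 0 calls in limma, with 2 at an unadjusted p under 0.05 in siControl cells, against 36.4% of all rows, and 0 in siLAPTM4B cells, against 31.2%. Outcomes of the methods' t-test for the markers are not given here. Their part in the serum effect on the lipid genes was not tested.

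The knockdown of *LAPTM4B* was compared within each medium, as siLAPTM4B minus siControl. Its effects on the lipid genes were small, between -0.27 and 0.27 over all 35 genes and both media, and few passed the test. Without serum 1 gene was called, *INSIG1*, against 2.33% of all rows, and 34 were not. With 10% FBS limma called 0 of the 35, against 4.08% of all rows. At an unadjusted p under 0.05 there were 5 genes without serum, against 15.1% of all rows, and 8 with FBS, against 18.2%. The methods' t-test (Student's, named there for other experiments), adjusted in the same way, called 0 genes in either medium. The knockdown comparisons share arrays with the serum comparisons above, so their values are not independent of them.

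*INSIG1* fell on knockdown without serum, by 0.27 (SE 0.05, 95% interval from -0.38 to -0.15, adjusted p = 0.0327). The starved siControl arrays read 11.61, 11.49 and 11.57 and the starved siLAPTM4B arrays 11.24, 11.34 and 11.29, without overlap. The exact permutation test cannot go below p = 0.1 with 3 arrays against 3. With FBS the siControl arrays read 10.13, 10.11 and 10.18 and the siLAPTM4B arrays 9.97, 10.02 and 9.93, a difference of -0.17 (SE 0.05, adjusted p = 0.0955) that was not called. The call without serum was lost when any 1 of the 6 arrays was left out, when all rows of the table were tested and with the t-test, each of which left 0 genes called.

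Several genes stood near the adjusted threshold used here without passing it. The study selected genes at an unadjusted p under 0.01. Its list without serum holds *ACSS2* and *HMGCS1* as up-regulated and *INSIG1* and *ELOVL1* as down-regulated. *ACSS2* was higher after knockdown by 0.23 without serum (SE 0.05, adjusted p = 0.0648) and by 0.27 with FBS (SE 0.07, adjusted p = 0.0922), and in both media each siLAPTM4B array lay above each siControl array. *HMGCS1* was higher by 0.18 without serum (SE 0.04, adjusted p = 0.0937), where the groups did not overlap, and by 0.05 with FBS, where they did. *ELOVL1* was lower by 0.16 without serum (SE 0.04, adjusted p = 0.117), from 11.45, 11.35 and 11.40 to 11.22, 11.25 and 11.24. *TM7SF2* with FBS differed by -0.19 (SE 0.05, adjusted p = 0.0713), *ACAT2* by -0.18 (SE 0.05, adjusted p = 0.0812) and *SCAP* by -0.18 (SE 0.06, adjusted p = 0.139). One fit over all 12 arrays called *INSIG1*, *TM7SF2* and *ACAT2* lower and *ACSS2* higher with FBS.

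With FBS 14 of the 19 sterol genes had a negative difference, all 7 genes from squalene to cholesterol among them, with a median of -0.08 over the 19 beside 0.00 over all rows. In 9 of the 19 each siLAPTM4B array lay below each siControl array and in 0 above, against 11.6% and 12.9% of all rows. Without serum 12 of the 19 had a positive difference, with a median of 0.03 beside 0.01 over all rows, and 4 did not overlap upward and 1 downward, against 9.72% and 11.6% of all rows. The 16 fatty acid genes had medians of 0.01 without serum and 0.00 with FBS. These are descriptions of small shifts of which only that of *INSIG1* passed the test. Without serum the 95% interval of the knockdown effect included 0 in 30 of the 35 genes. Over the genes the effects in the 2 media, which share no array, correlated with r = 0.414 (rho 0.259, 19 of 35 with the same sign), beside r = 0.391 and 57.6% with the same sign over all rows.

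**Figure D4:**
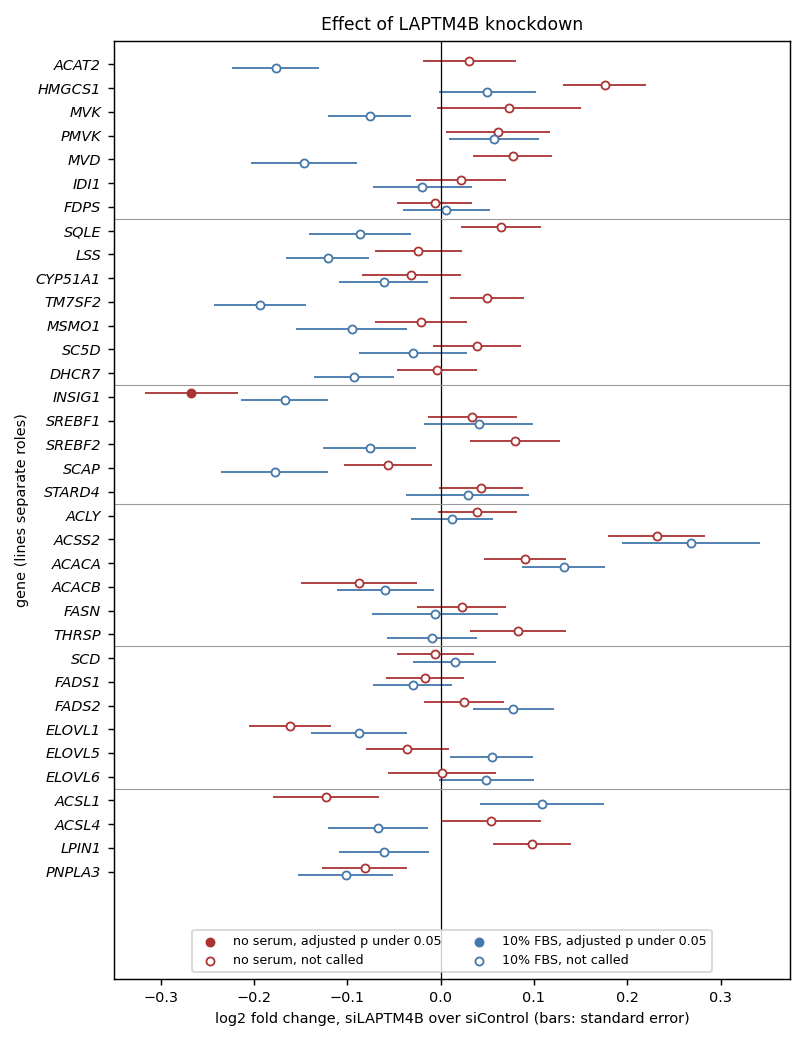
Log2 fold change (siLAPTM4B over siControl) of the 35 genes without serum and with 10% FBS, with bars for the standard error of the limma fit and 3 arrays per group, on a narrower axis than the plot of the serum effect. The filled point is *INSIG1* without serum at -0.27, the only one past an adjusted p of 0.05, and *ACSS2* stands farthest to the right in both media at 0.23 and 0.27.

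Whether the knockdown effect differed between media, which is the same as whether the serum effect differed between siRNAs, was the question of an interaction term fitted to the 12 arrays together. Of the 35 genes limma called 0, against 0.262% of all rows, and 7 had an unadjusted p under 0.05, against 11% of all rows. The estimate, the knockdown effect without serum minus that with FBS, was positive in 16 of the 19 sterol genes, with a median of 0.09 beside about 0 over all rows, and in 7 of the 16 fatty acid genes, with a median of -0.02. The serum rise was larger in siLAPTM4B than in siControl cells in 20 of the 29 genes that rose. The share of all rows with such a sign was not counted, so these counts of signs have no baseline.

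*TM7SF2* had the largest positive estimate, 0.24 (SE 0.06, 95% interval from 0.12 to 0.37, adjusted p = 0.114). Its arrays read 9.90, 9.92 and 9.91 in starved siControl cells and 9.96, 9.95 and 9.95 in starved siLAPTM4B cells, and 9.62, 9.57 and 9.62 against 9.48, 9.38 and 9.38 with FBS. *MVD* had 0.22 (SE 0.07, adjusted p = 0.238), *ACAT2* 0.21 (SE 0.06, adjusted p = 0.253), *SREBF2* 0.16 (SE 0.07, adjusted p = 0.41), *LPIN1* 0.16 (SE 0.06, adjusted p = 0.341) and *SQLE* 0.15 (SE 0.07, adjusted p = 0.425). *TM7SF2*, *MVD* and *SQLE* were the 3 genes in which every siLAPTM4B array lay above every siControl array without serum and below it with FBS, a pattern found in 82 rows, or 0.421%, of all. In the other direction *ACSL1* had -0.23 (SE 0.09, 95% interval from -0.43 to -0.04, adjusted p = 0.369). For genes such as *FASN* and *STARD4* the 95% interval of the difference ran from -0.15 to 0.21 and from -0.16 to 0.19. With 3 arrays per group these data thus leave differences within those ranges between siControl and siLAPTM4B cells unsettled for these genes.

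Calls after knockdown among the other genes of these pathways can be read beside 2.33% of all rows without serum and 4.08% with FBS. Without serum 1 of 9 LXR and export genes (11.1%) and 1 of 7 citrate and NADPH genes (14.3%) were called. With FBS 2 of the 7 (28.6%) were called, as were 2 of 11 other acyl-CoA synthetases (18.2%). There, 1 gene each was called in other sterol enzymes (12.5%), fatty acid oxidation (8.33%), triglyceride synthesis (9.09%) and SREBP processing (7.14%). The other pathway lists gave 0 calls besides *FABP3*. *FABP3* fell by 0.38 without serum (adjusted p = 0.00541) and by 0.62 with FBS (adjusted p = 0.000633), from 11.68, 11.68 and 11.75 to 11.28, 11.35 and 11.35 and from 9.05, 9.04 and 9.09 to 8.48, 8.47 and 8.36. *ME1* fell by 0.42 and 0.36. Without serum *ABCA1* fell by 0.28 (adjusted p = 0.0201). With FBS *SEC24D*, a coat protein of the vesicles that leave the endoplasmic reticulum, fell by 0.33, *ANGPTL4* by 0.37, *ACSS1*, the mitochondrial relative of *ACSS2*, by 0.41 and *POR*, the reductase that feeds electrons to *CYP51A1*, by 0.21. In the same medium *ACSL5* rose by 0.43, *GPAM* by 0.27 and *IDH1* by 0.22. Without serum each of these genes, from *SEC24D* to *IDH1*, differed in the same direction without being called. There the differences were -0.23 for *SEC24D*, -0.31 for *ANGPTL4*, -0.23 for *ACSS1* and -0.20 for *POR*. They were 0.20 for *ACSL5* and 0.18 for *IDH1*, and the mean of *GPAM* went from 8.52 to 8.63. The interaction called none of them.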

How the data were processed

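RNA of Calu-6 cells was measured in 4 groups of 3 replicates. The paper does not state whether these came from separate experiments. The authors normalized the 12 Affymetrix Human Gene 1.0 ST arrays by RMA in BRB-ArrayTools 4.3.0, and the deposited values are log2 signals, from 3.37 to 14.8. RMA fits probe brightness across arrays and scales the arrays to one distribution, so changes can be compressed and an overall shift in RNA amount is not seen. The table gives no background or detection call. Genes were named through the platform annotation of 2016. Of 33252 rows, 19460 carried 1 symbol and were tested, and 1754 with several and 12038 without a symbol were left out. No genome build is given in the sources used here, and coordinates are those of the RefSeq promoter table.

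Each comparison was fitted over its 6 arrays with limma 3.58.1 (R 4.3.3), and the interaction over 12. Benjamini-Hochberg adjustment ran over all 19460 rows, with a call meaning an adjusted p below 0.05. The fit was tested on simulated data. Values on every array are given for the 16 called genes of the list with the largest change and for *SREBF1*, *SREBF2* and *SCAP*, and up to 3 called genes per companion list, direction and comparison are named. *ACACB*, *TM7SF2* and *ELOVL1* were added after their values were seen. The 38 genes and all companion lists were chosen with earlier results of these data known. The residuals of like-numbered arrays about their group means correlated at 0.366, 0.13 and 0.20 between the siControl media. Neither the sample titles nor the paper states that like-numbered arrays are paired, and these correlations cannot settle it. The fits first given used no pairing. In the other comparisons at least 1 of the 3 correlations was under 0.1 (0.316, 0.131 and -0.167 between the siLAPTM4B media, 0.387, 0.0694 and 0.184 for knockdown without serum, 0.368, 0.153 and -0.0795 with FBS). No shared batch is stated. Alternatives were other priors, row filters, scaling, fits, the replicate block, a t-test and leaving out each array.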

Additional observations from a re-analysis of the deposited data

Results flagged for a closer look

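The effect of knockdown differed between media for *ABCA1*, the cholesterol exporter, by a limma interaction over 12 arrays. The difference, knockdown without serum minus knockdown with 10% FBS, was -0.45 (adjusted p = 0.00962). The starved siControl arrays read 10.34, 10.32 and 10.40 and the starved siLAPTM4B arrays 10.03, 10.08 and 10.11, whereas with FBS the siControl arrays read 8.91, 8.98 and 9.03 and the siLAPTM4B arrays 9.15, 9.19 and 9.10. *LAPTM4B* itself had a difference of 0.33 (adjusted p = 0.0345), the knockdown being smaller without serum. The fits that left out single arrays are not reported here for *ABCA1* and *LAPTM4B*.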

How the results depend on the processing

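Over 9 other settings the count of genes that rose on serum withdrawal stayed at 29 in siControl and in siLAPTM4B cells, and leaving out each array in turn gave 29 to 29 and 28 to 29. No named gene changed sign while called. The 2 lower calls in siControl cells became 1 with all rows of the table, a robust prior, the replicate block or the t-test, each without *THRSP*, and 1 to 1 when arrays were left out. They became 3 with dim rows left out, centred arrays or the mean of all rows of a gene, each adding *SCAP*, and the intensity trend gave 2 with *SCAP* in place of *THRSP*. In siLAPTM4B cells the 1 lower call, *ACACB*, became 0 with the t-test and 0 to 1 when arrays were left out. For knockdown without serum, an intensity trend in the prior gave 2 higher (*HMGCS1*, *ACSS2*) and 2 lower (*INSIG1*, *ELOVL1*), leaving out dim rows gave 1 higher (*ACSS2*), all rows of the table or the t-test gave 0 lower, and leaving out an array gave 0 to 0. For knockdown with FBS the trend gave 1 higher and 4 lower (*ACAT2*, *TM7SF2*, *INSIG1*, *SCAP*), the fit of all 12 arrays 1 higher and 3 lower, leaving out dim rows 1 lower (*TM7SF2*), and leaving out an array 0 to 0. The cause was not tested. The interaction gave 0 calls in each setting run. The replicate block changed no call of these genes other than that of *THRSP*. Of these counts under other settings, 129 stayed within 1.5 times the count first given, 8 were higher and 21 lower. Centring the arrays shifted the log2 fold changes of the 35 genes by a median of at most 0.00687 in size. The number of arrays, 3 per group, limits what the knockdown comparisons can show.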
